A study of Homo sapiens with 6 samples.

Results

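The genes described here encode the actin cytoskeleton and its main transcriptional regulator, serum response factor (SRF). They were chosen by name: actins, thymosins, actin-binding, capping, Arp2/3 and myosin genes, SRF, ERM proteins (ezrin, radixin and moesin), vimentin, AHNAK, RAC1 and other regulators, and adaptors. Of the 59 names, 58 were among the 12760 genes in the table, and CNN3 was not analysed here. All libraries came from MM.1S, an established human line of malignant plasma cells (multiple myeloma). In the 3 LenR libraries, cells had been selected under lenalidomide from 10 nM, with a 10-fold higher dose each month over 3 months. In the 3 WT libraries, cells of the same line had been kept in the solvent DMSO alongside. The genotype label reads WT in all 6 libraries. Lenalidomide makes the ubiquitin ligase component cereblon bind and degrade new target proteins. Whether the drug was present at harvest, and whether the 3 LenR libraries came from separate selections, is not given in the sources used here. The p-values therefore measure the spread between these libraries, which may be technical.

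Actin cycles between single molecules and filaments. Thymosins and profilin bind the single molecules, cofilin and coronins take filaments apart, capping proteins close filament ends, and the Arp2/3 complex and formins start and extend new ones. Cross-linkers, tropomyosins and myosin II turn filaments into contractile networks, and ERM proteins tie them to the membrane. SRF switches on many of these genes through a short DNA motif, the CArG box, together with cofactors (MRTF proteins) that sense the pool of free actin. In blood cells this machinery serves migration, adhesion and contacts between cells.

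Levels are FPKM, fragment counts scaled by gene length and by library size. Between 14500140 and 17387914 reads lay behind each library. Of 12 plasma cell markers, 11 were listed and 10 averaged at least 1 FPKM, with sums of 4725 to 5658 FPKM in LenR and 4040 to 4650 FPKM in WT. Of these 10 markers, SDC1, CD38, IRF4, PRDM1 and XBP1 rose in LenR past an adjusted p of 0.05 (limma). Their log2 fold changes were 0.33 (IRF4) to 0.60 (CD38), and their part in the results below was not tested. TNFRSF17, MZB1, JCHAIN, SLAMF7 and POU2AF1 did not pass, with log2 fold changes of −0.10 (POU2AF1) to 0.24 (TNFRSF17). Over all genes tested 15.1% passed in either direction. Of the markers of other cell types, 0 of 5 epithelial, 1 of 4 endothelial (PECAM1), 1 of 8 myeloid (CD68), 1 of 5 erythroid and platelet (HBB), 2 of 6 B cell, 2 of 8 T and NK cell and 3 of 9 stromal markers were listed. Highest was the myeloid marker CD68, with 17.26 to 19.35 FPKM in LenR and 12.87 to 16.63 FPKM in WT. B cell sums came next, with 8.01 to 9.79 FPKM in LenR and 9.24 to 10.37 FPKM in WT. The stromal sums were 2.95 to 3.72 FPKM in LenR and 2.75 to 3.58 FPKM in WT. Most of this was TAGLN, also an SRF target, with 2.35 to 2.88 FPKM in LenR and 2.29 to 2.945 FPKM in WT. LenR replicate 2 and WT replicate 3 stood apart from the other 4 libraries on the second principal component, which held 26.8% of the variance. Their scores were −13.69 and −14.01. The other 4 were themselves spread, from 2.62 (LenR replicate 1) to 12.67 (LenR replicate 3).

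Promoters of 54 of the 59 names were in the RefSeq table (GRCh38.p14, 250 bases before to 50 after the gene start), which did not hold those of ACTB, ARPC1B, WASF2, RAC1 and RAC2. A CArG box, CC and GG around 6 A or T bases, was in 7 of the 54 (13.0%), against 0.983% of 9459 promoters of genes in the FPKM table and 1.29% of all 27305. The motif is its own reverse complement, so 1 search covers both strands. Boxes outside this window or with other letters were not searched, so a gene without a box here may still have one. Some members were chosen as known SRF targets, so the share is a description of the list. The boxes are shown in capitals so that SRF, members that moved and members that did not can be compared letter by letter, each written 5′ to 3′ on the gene's strand.
ACTG1: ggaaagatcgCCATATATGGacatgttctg
FLNA: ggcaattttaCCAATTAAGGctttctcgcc
SRF: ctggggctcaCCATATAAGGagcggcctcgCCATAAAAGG
FHL2: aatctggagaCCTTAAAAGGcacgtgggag
TPM4: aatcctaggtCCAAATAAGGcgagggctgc
CNN2: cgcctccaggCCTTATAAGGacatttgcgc
ARHGDIB: ccagtctttaCCTTATATGGgcttttttgt

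On GRCh38 these stretches lie at chr17:81512874-81512903 (minus strand) for ACTG1, chrX:154374709-154374738 (minus) for FLNA, chr6:43171229-43171268 (plus) for SRF and chr2:105438595-105438624 (minus) for FHL2. Those of TPM4, CNN2 and ARHGDIB lie at chr19:16067355-16067384 (plus), chr19:1026509-1026538 (plus) and chr12:14948962-14948991 (minus). The boxes begin 94 bases before the RefSeq gene start in ACTG1 and FLNA, 30 and 10 in SRF, 101 in FHL2, 173 in TPM4, 89 in CNN2 and 85 in ARHGDIB. These RefSeq starts can differ from the GENCODE 29 gene bounds given below. In GENCODE 29 the ACTG1 stretch overlaps an exon of a longer ACTG1 transcript, the FLNA stretch an exon of the antisense gene AC245140.3, and those of TPM4 and ARHGDIB lie in introns of longer transcripts. SRF itself has a pair of boxes just before its start. Of the genes shown, FLNA, TPM4 and CNN2 fell in LenR, FHL2 rose, and ACTG1, SRF and ARHGDIB did not pass the test.

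Of the 58 members listed, 56 averaged at least 1 FPKM and were tested. In LenR 5 rose and 8 fell past an adjusted p of 0.05 (limma on log2(FPKM + 1), two-sided, 3 libraries per group), which is 13 of 56. Over all 11276 genes tested the call was made for 15.1%, with 8.57% higher and 6.57% lower in LenR. The members that rose were EVL, CORO1B, ARPC3, FHL2 and CORO1C, and those that fell were AHNAK, ACTB, ARPC2, RAC1, CAPG, FLNA, CNN2 and TPM4. The median log2 fold change of the 56 was −0.11, with 41 below 0, against −0.002 over all genes tested. LenR and WT values did not overlap for 25 of the 56 members, against 34.5% of all genes tested. LenR replicate 2 and WT replicate 3 were singled out from these same data, and the labels name no batch. With a term for these 2 libraries, 6 members rose and 23 fell, beside 28.1% of all genes called. These were the 13 and 16 more, of which FHL1 rose and ACTN4, ACTR3, ARPC4, CAPZB, CORO1A, EZR, MSN, MYH9, MYL12A, TMSB4X, TPM3, VASP, VIM, WDR1 and ZYX fell. Without LenR replicate 1, 9 of the 13 and CORO1A were called beside 9.55% of all genes, and leaving out WT replicate 1 or WT replicate 2 left 9 members beside 8.92% and 9.41%. A block for the replicate number left 8 members beside 8.04%, and averaging WT replicates 1 and 2 left 9 beside 9.33%.

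**Figure D1:**
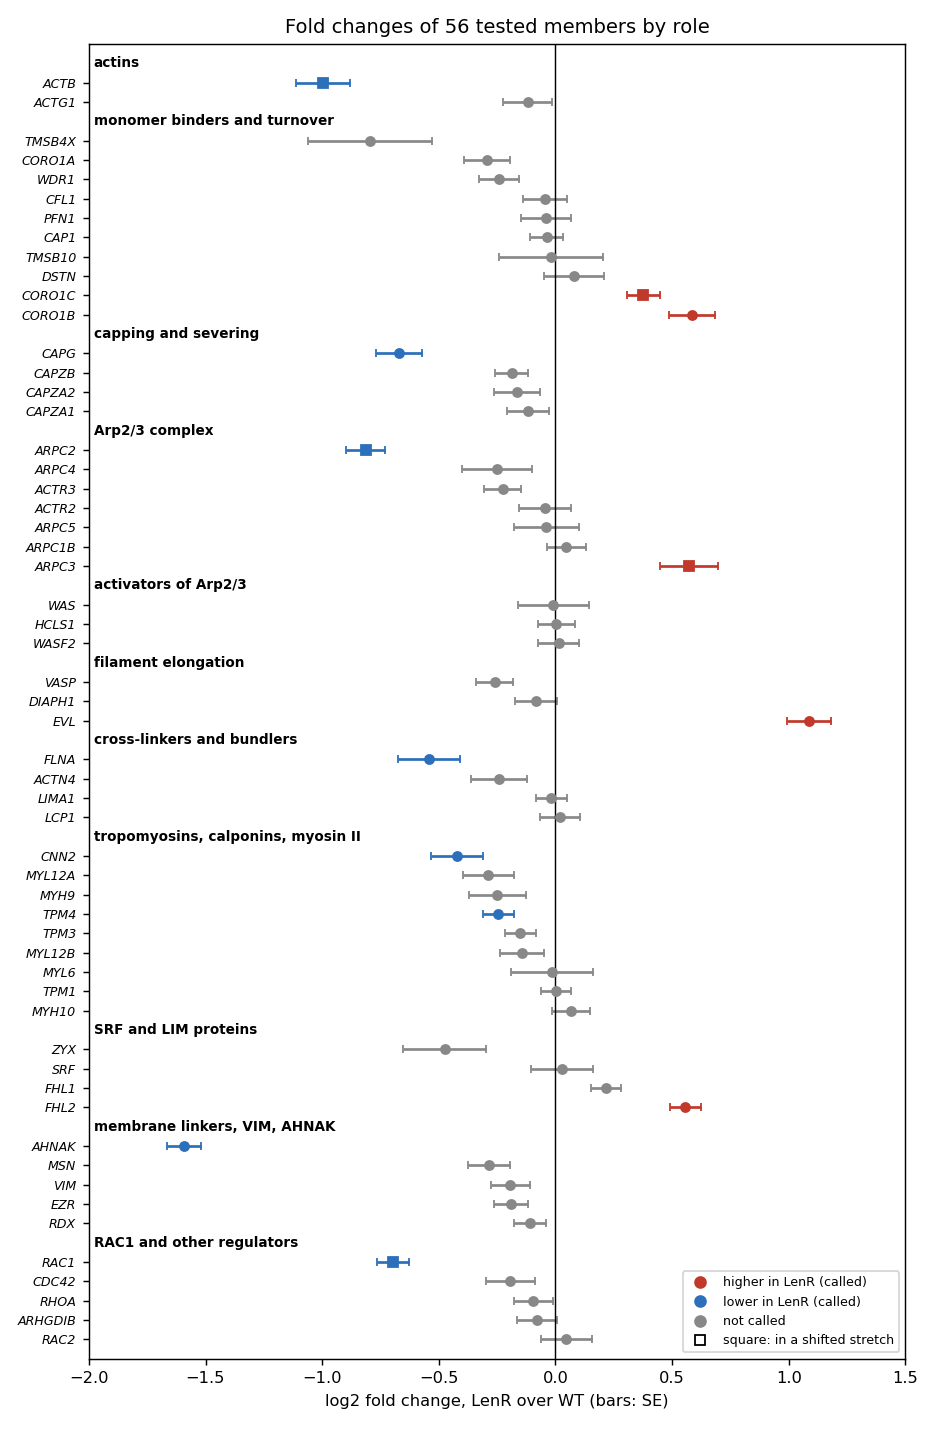
Log2 fold change of LenR over WT on the log2(FPKM + 1) scale (horizontal axis, bars are standard errors from limma) for the 56 tested members, grouped by role. Red marks are called higher, blue called lower, grey not called, and squares lie in stretches of chromosome whose genes shifted together; most marks sit left of 0, with AHNAK at −1.59 and EVL at 1.09 at the ends.

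Of the 2 cytoplasmic actins, ACTB fell and ACTG1 did not. ACTB (chromosome 7, 5527147 to 5563784), beta-actin, measured 1307, 1374 and 1155 FPKM in LenR and 2461, 2408 and 2788 FPKM in WT. Every LenR library lay well below every WT library (log2 fold change −0.997, SE 0.12, adjusted p = 0.00109). ACTG1 (chromosome 17, 81509971 to 81523847), gamma-actin, measured 1392, 1441 and 1260 FPKM in LenR and 1447, 1407 and 1590 FPKM in WT. Those groups overlapped (log2 fold change −0.12, SE 0.11, adjusted p = 0.522). In bulk RNA, fewer cells of a kind and less RNA per cell cannot be told apart.

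ACTB was below ACTG1 in every LenR library and above it in every WT library. ACTB was 0.939, 0.953 and 0.917 times ACTG1 in LenR, and 1.70, 1.71 and 1.75 times ACTG1 in WT. The groups did not overlap (ratio of the geometric means 0.544; exact two-sided permutation test, p = 0.1, the smallest that 3 against 3 allows). ACTB ranked 11 by mean level of all genes in LenR and 3 in WT, while ACTG1 ranked 10 in both. The sum of both actins was 2643 ± 206 FPKM in LenR and 4034 ± 302 FPKM in WT (SD, n = 3 libraries each; exact permutation test, p = 0.1). GENCODE 29 names 10 pseudogenes of ACTB and 20 of ACTG1, and how reads that match several places were counted is not given in the sources used here.

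**Figure D2:**
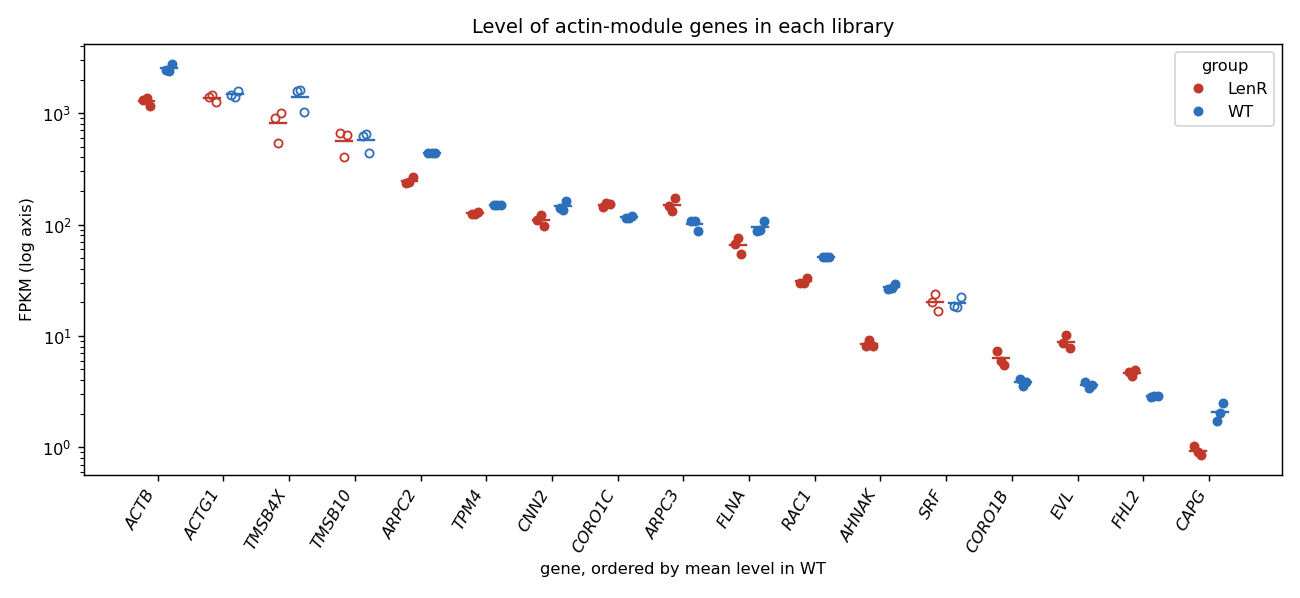
FPKM (log axis) of each library, LenR left (red) and WT right (blue) of each gene name, with bars at the group mean; filled points are members called by limma and open points are ACTG1, TMSB4X, TMSB10 and SRF, which were not called. ACTB, ARPC2, RAC1 and AHNAK show a clear gap with LenR below, and EVL one with LenR above, whereas TMSB4X and TMSB10 spread widely within each group.

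Among proteins that bind actin monomers or turn filaments over, 2 of 10 rose and none fell, beside 15.1% of all genes called. CORO1B (chromosome 11, 67435510 to 67443821), a coronin that works against Arp2/3 branches, measured 7.32, 6.00 and 5.52 FPKM in LenR and 4.09, 3.54 and 3.87 FPKM in WT (log2 fold change 0.58, SE 0.10, adjusted p = 0.00646). All LenR libraries lay above all WT libraries. Its exons share 1292 bases with those of PTPRCAP, a leukocyte gene on the same strand. CORO1C (chromosome 12, 108645109 to 108731596), another coronin, measured 144, 155 and 153 FPKM in LenR and 114, 115 and 118 FPKM in WT (0.38, SE 0.07, adjusted p = 0.00918), also without overlap. Leaving out WT replicate 1 (adjusted p = 0.0659) or WT replicate 2 (0.06) ended that call. CORO1A, the coronin of blood cells and the most abundant of the 3, measured 329 ± 35.9 FPKM in LenR and 402 ± 15.4 FPKM in WT (−0.29, adjusted p = 0.0934).

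TMSB4X, thymosin beta 4, a main store of free actin monomers, was lower on average in LenR without passing. It measured 909, 543 and 1012 FPKM in LenR and 1587, 1609 and 1023 FPKM in WT. The groups did not overlap, but LenR replicate 3 and WT replicate 3 were nearly level, and LenR replicate 2 was lowest of all (log2 fold change −0.79, SE 0.27, adjusted p = 0.0896). The adjusted p was 9.03e-05 with a term for LenR replicate 2 and WT replicate 3, and 0.0427 without WT replicate 3. Without LenR replicate 2 the log2 fold change was −0.52 (adjusted p = 0.136), and without WT replicate 1 or WT replicate 2 the adjusted p was 0.247 and 0.248. Within the 4 other libraries the log2 fold change was −0.74, and between LenR replicate 2 and WT replicate 3 it was −0.91. Its relative TMSB10 measured 661, 404 and 633 FPKM in LenR and 622, 651 and 436 FPKM in WT (log2 fold change −0.02, adjusted p = 0.966), again with LenR replicate 2 and WT replicate 3 lowest. The direction of so small a value turned under several alternatives.

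Both thymosin genes are short, and short members ran low in those 2 libraries. Against the mean of LenR replicates 1 and 3, LenR replicate 2 was lower for all 4 members under 1000 bp (TMSB4X, TMSB10, MYL6 and ARPC3), with a median difference of −0.64 on the log2 scale. WT replicate 3 against WT replicates 1 and 2 was lower for the same 4 genes, with a median of −0.42. Over all 758 tested genes under 1000 bp the medians were −0.34 for LenR replicate 2 and −0.21 for WT replicate 3. Across the 56 members the Spearman correlation of this difference with length was 0.48 in LenR and 0.26 in WT, as a description of members that share these libraries. The part of length in the thymosin values was not tested beyond removing each library's length trend, which gave TMSB4X an adjusted p of 0.00425.

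**Figure D3:**
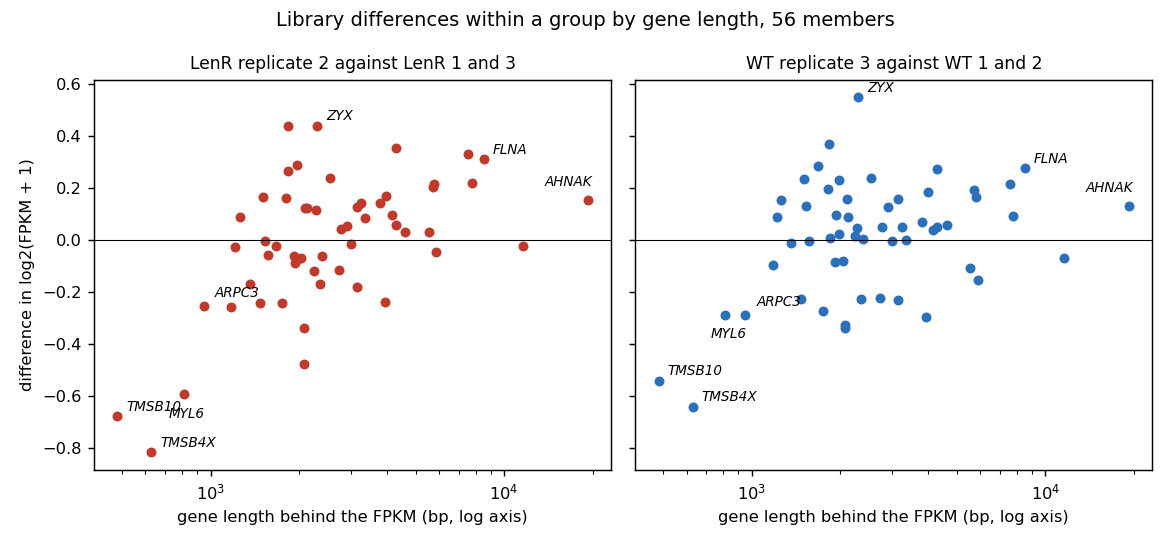
Difference in log2(FPKM + 1) of LenR replicate 2 from LenR replicates 1 and 3 (left, red) and of WT replicate 3 from WT replicates 1 and 2 (right, blue) against gene length (log axis, bp), 1 point per tested member. TMSB4X, TMSB10, MYL6 and ARPC3, the 4 members under 1000 bp, lie below 0 in both panels. Of the 9 members of at least 5000 bp, 7 lie above 0 on the left and 6 on the right, with FLNA and AHNAK above 0 in both.

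The other genes of this group showed small differences. PFN1 (profilin) measured 538 ± 67.7 FPKM in LenR and 550 ± 10.5 FPKM in WT, and CFL1 (cofilin) 659 ± 26.7 FPKM in LenR and 681 ± 50.5 FPKM in WT (log2 fold changes −0.04 and −0.04). CAP1, which recycles actin monomers, and DSTN, a cofilin relative, had log2 fold changes of −0.04 and 0.08. WDR1, which helps cofilin take filaments apart, did not pass either (log2 fold change −0.24, adjusted p = 0.106). Its LenR values (150 to 170 FPKM) lay below its WT values (181 to 204 FPKM).

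Of the genes for filament capping and severing, CAPG fell. CAPG (chromosome 2, 85394748 to 85418432), a gelsolin relative that caps filament ends, measured 1.02, 0.903 and 0.853 FPKM in LenR and 1.73, 2.01 and 2.49 FPKM in WT (log2 fold change −0.67, SE 0.10, adjusted p = 0.00335). The groups did not overlap, on 24 reads or more per library. At this low level the log2 fold change was −1.07 with 0.1 in place of 1 added before the logarithm and −1.12 in a voom fit on recovered reads. GSN, gelsolin itself, averaged under 1 FPKM and was left out of the test, with 0.276, 0.507 and 0.640 FPKM in LenR and 0.802, 0.745 and 1.06 FPKM in WT. The subunits of the main capping protein, CAPZA1, CAPZA2 and CAPZB, had log2 fold changes of −0.12, −0.17 and −0.19 and none passed. LenR and WT values overlapped for CAPZA1 and CAPZA2 and not for CAPZB (50.2 to 52.5 FPKM in LenR and 55.0 to 62.1 FPKM in WT).

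The Arp2/3 complex, which branches filaments and holds each subunit once, had opposite changes in its subunits. ARPC2 (chromosome 2, 218217094 to 218254356), at the core of the complex, measured 236, 240 and 266 FPKM in LenR and 436, 436 and 434 FPKM in WT. The drop was larger than any spread within a group (log2 fold change −0.81, SE 0.08, adjusted p = 0.000555). ARPC3 (chromosome 12, 110434825 to 110450422) measured 146, 132 and 171 FPKM in LenR and 107.0, 106.8 and 87.3 FPKM in WT, and rose (0.57, SE 0.12, adjusted p = 0.0175). Without LenR replicate 1 its adjusted p was 0.0677. The other 5 subunits did not pass, with log2 fold changes from −0.25 (ARPC4) to 0.05 (ARPC1B). Of these, ACTR3, one of the actin-related proteins that give the complex its name, was lower in each LenR library (51.6 to 57.2 FPKM) than in each WT library (58.6 to 66.4 FPKM; −0.23, adjusted p = 0.0995), and its partner ACTR2 overlapped (−0.04). On the FPKM scale ARPC2 was the most abundant subunit in WT (435 ± 0.727 FPKM, against 254 ± 33.2 FPKM for ARPC5), while in LenR it measured 247 ± 16 FPKM and ARPC5 247 ± 36.3 FPKM.

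None of the activators of Arp2/3 passed the test, and their group means were close. WAS, the Wiskott-Aldrich syndrome protein of blood cells, measured 72.4 ± 13.6 FPKM in LenR and 72.6 ± 11.3 FPKM in WT. WASF2, of the WAVE complex, measured 34.7 ± 2.96 FPKM in LenR and 34.4 ± 2.78 FPKM in WT, and HCLS1, a cortactin relative of blood cells, 347 ± 13 FPKM in LenR and 346 ± 11.6 FPKM in WT. Their log2 fold changes were −0.01, 0.01 and 0.00, with SEs of 0.15, 0.09 and 0.08.

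Among genes for filament elongation, EVL had the highest log2 fold change of all 56 members. EVL (chromosome 14, 99971449 to 100144236), an Ena/VASP protein that keeps filament ends growing, measured 8.69, 10.1 and 7.82 FPKM in LenR and 3.84, 3.41 and 3.64 FPKM in WT. The lowest LenR library was above the highest WT library (log2 fold change 1.09, SE 0.09, adjusted p = 0.000296). Its family member VASP measured 21.8 ± 1.97 FPKM in LenR and 26.3 ± 0.939 FPKM in WT (−0.26, adjusted p = 0.0701), and the formin DIAPH1 60.8 ± 5.63 FPKM in LenR and 64.5 ± 4.32 FPKM in WT (−0.09, adjusted p = 0.601).

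Of the filament cross-linkers, FLNA fell. FLNA (chromosome X, 154348524 to 154374638), filamin A, measured 67.1, 74.9 and 54.1 FPKM in LenR and 88.1, 89.7 and 108 FPKM in WT (log2 fold change −0.54, SE 0.13, adjusted p = 0.0311). The groups did not overlap. Leaving out any library but LenR replicate 2 ended the call, with adjusted p between 0.0547 (without LenR replicate 3) and 0.0956 (without LenR replicate 1). ACTN1, a non-muscle alpha-actinin, was left out of the test by its low mean. It measured 0.109, 0.266 and 0.241 FPKM in LenR and 1.248, 1.13 and 1.44 FPKM in WT. That is 6, 16 and 16 reads in LenR against 83, 71 and 80 reads in WT. Without the filter on low values it passed as lower (adjusted p = 0.000298). ACTN4, another non-muscle alpha-actinin and far more abundant here, measured 86.8 ± 12.3 FPKM in LenR and 102 ± 9.66 FPKM in WT (−0.24, adjusted p = 0.232). LCP1, the plastin of leukocytes, measured 362 ± 24.2 FPKM in LenR and 357 ± 10 FPKM in WT, and LIMA1, a filament stabiliser, 3.42 ± 0.058 FPKM in LenR and 3.48 ± 0.217 FPKM in WT.

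Of 9 tested genes of tropomyosins, calponins and myosin II, CNN2 and TPM4 fell and none rose, beside 15.1% of all genes called. CNN2 (chromosome 19, 1026581 to 1039068), a calponin, measured 110, 122 and 96.2 FPKM in LenR and 141, 136 and 163 FPKM in WT (log2 fold change −0.42, SE 0.11, adjusted p = 0.0418). TPM4 (chromosome 19, 16067021 to 16103005), a tropomyosin, measured 124, 125 and 129 FPKM in LenR and 151, 148 and 149 FPKM in WT (−0.25, SE 0.07, adjusted p = 0.0452). Neither gene's groups overlapped. For TPM4, leaving out any 1 of the 6 libraries ended the call (adjusted p 0.0668 to 0.199), and for CNN2 any but LenR replicate 2 did (0.0754 to 0.122). GENCODE 29 names 11 pseudogenes of CNN2. MYH9, the main heavy chain of non-muscle myosin II, measured 241 ± 35.2 FPKM in LenR and 285 ± 24.9 FPKM in WT (−0.25, adjusted p = 0.231), while MYH10, a minor heavy chain here, measured 19.7 ± 1.83 FPKM in LenR and 18.7 ± 0.843 FPKM in WT. The light chains MYL6, MYL12A and MYL12B had log2 fold changes of −0.01, −0.29 and −0.14, and the tropomyosins TPM1 and TPM3 0.00 and −0.15, and none of these 5 passed. TPM3 alone among them had groups that did not overlap (59.5 to 62.7 FPKM in LenR and 65.3 to 69.1 FPKM in WT).

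SRF itself did not differ beyond its spread. SRF (chromosome 6, 43171299 to 43181507) measured 20.3, 23.8 and 16.8 FPKM in LenR and 18.7, 18.1 and 22.5 FPKM in WT (log2 fold change 0.03, SE 0.13, adjusted p = 0.923), and the sign turned in 4 alternatives. FHL2 (chromosome 2, 105357712 to 105438513), a LIM-domain cofactor and target of SRF, rose, with 4.79, 4.37 and 4.90 FPKM in LenR and 2.84, 2.87 and 2.89 FPKM in WT (0.56, SE 0.07, adjusted p = 0.00109). All LenR libraries exceeded all WT libraries. Its relative FHL1 measured 27.9 ± 1.12 FPKM in LenR and 23.9 ± 0.523 FPKM in WT (0.22, adjusted p = 0.057). ZYX (zyxin, a focal adhesion protein) measured 15.04, 19.7 and 13.6 FPKM in LenR and 19.8, 19.7 and 29.3 FPKM in WT, and those groups met (−0.47, adjusted p = 0.125).

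AHNAK had the lowest log2 fold change of all 56 members. This giant scaffold protein under the plasma membrane (chromosome 11, 62433542 to 62556235) measured 8.17, 9.16 and 8.12 FPKM in LenR and 26.6, 26.9 and 29.3 FPKM in WT (log2 fold change −1.59, SE 0.07, adjusted p = 3.55e-05). No LenR library came near the WT range, on at least 2292 reads per library. The ERM genes EZR, MSN and RDX and the intermediate filament gene VIM were each lower in every LenR library than in every WT library without passing. Groups did not overlap for 34.5% of all genes tested. The gap was narrow for RDX, with 11.28 FPKM in the highest LenR library and 11.42 FPKM in the lowest WT library. MSN (moesin), the most abundant ERM gene, measured 177 ± 12.2 FPKM in LenR and 216 ± 16.3 FPKM in WT (−0.29, adjusted p = 0.076). VIM (vimentin) measured 253 ± 15.2 FPKM in LenR and 289 ± 10.3 FPKM in WT (−0.19, adjusted p = 0.168), and RDX (radixin) 11.1 ± 0.305 FPKM in LenR and 12.1 ± 0.802 FPKM in WT (−0.11, adjusted p = 0.34). EZR (ezrin) measured 60.6 ± 3.72 FPKM in LenR and 69.2 ± 1.34 FPKM in WT (−0.19, adjusted p = 0.123).

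RAC1 fell. It (chromosome 7, 6374523 to 6403977), which drives branched actin through the WAVE complex, measured 29.7, 30.03 and 33.2 FPKM in LenR and 50.6, 50.9 and 50.8 FPKM in WT (log2 fold change −0.70, SE 0.07, adjusted p = 0.000513), without overlap. GENCODE 29 names 9 pseudogenes of RAC1. RAC2, the form of blood cells, was far more abundant and measured 420 ± 39 FPKM in LenR and 407 ± 39.6 FPKM in WT (0.05, adjusted p = 0.837). RHOA measured 231 ± 16.3 FPKM in LenR and 247 ± 8.67 FPKM in WT, CDC42 68.5 ± 7.91 FPKM in LenR and 78.3 ± 7.27 FPKM in WT, and the inhibitor ARHGDIB 664 ± 23.8 FPKM in LenR and 702 ± 25.2 FPKM in WT, and none of these passed.

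Of the called members, 5 lie in stretches of chromosome whose genes shifted together. A stretch was counted as shifted where the 20 nearest tested genes outside the list had a median log2 fold change of at least 0.2 in size, with at least 15 on that side of 0. ACTB (−0.997) and RAC1 (−0.70) lie close together on the short arm of chromosome 7, where all 20 neighbours of each were below 0, with medians of −0.68 (2558972 to 6484190) and −0.60 (5431335 to 7608929). ARPC2 (−0.81) lies on chromosome 2 among 20 neighbours that were all below 0, with a median of −0.70 (213284379 to 218702716). ARPC3 (0.57) and CORO1C (0.38) lie on chromosome 12 among 20 neighbours each that were all above 0, with medians of 0.66 (109714228 to 111685986) and 0.39 (106774595 to 109598117). The log2 fold change of ACTB differed from its neighbours' median by −0.315, and the other 4 differed from theirs by −0.114 to −0.013.

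Without these 5 genes, 3 of 51 members rose (EVL, CORO1B and FHL2) and 5 fell (AHNAK, CAPG, FLNA, CNN2 and TPM4). That is 8 of 51, near the 15.1% of all genes, and the median log2 fold change was −0.11, with 38 of the 51 below 0. All 5 members inside the stretches were called. The stretches were found from fold changes of the same fit, and the share called among all genes in such stretches was not counted. The neighbours of AHNAK, EVL, CAPG, CORO1B, FHL2, FLNA, CNN2 and TPM4 had medians between −0.08 and 0.04. The count of 8 was 5 without LenR replicate 3, WT replicate 1 or WT replicate 2, beside 13.8%, 8.92% and 9.41% of all genes. With a term for LenR replicate 2 and WT replicate 3, picked from these data, it was 24, beside 28.1% of all genes.

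**Figure D4:**
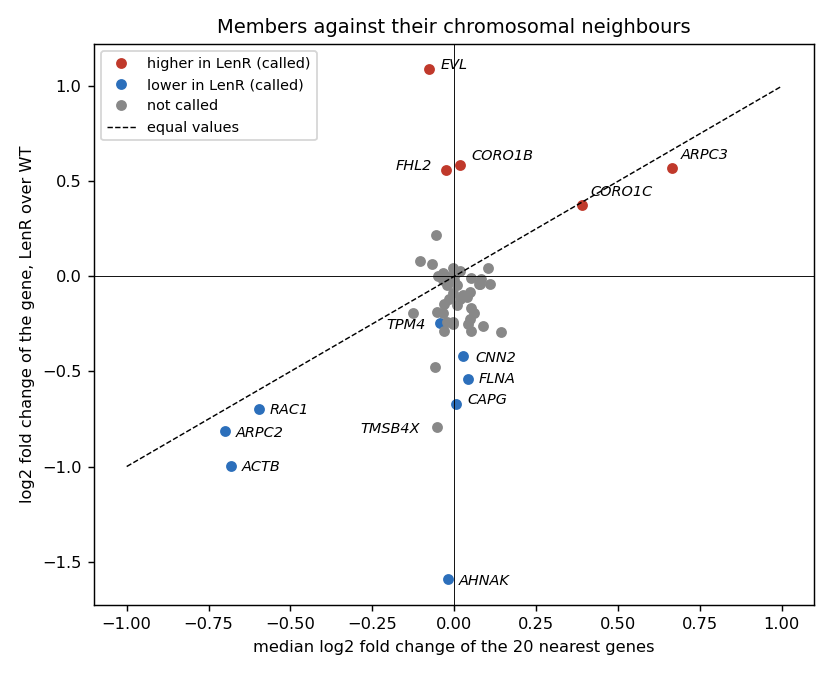
Log2 fold change of each tested member (vertical axis, LenR over WT) against the median log2 fold change of its 20 nearest genes (horizontal axis), red called higher, blue called lower, grey not called, with the dashed line at equal values. RAC1, ARPC2, ARPC3 and CORO1C lie near the line, away from 0, and ACTB lies further below it (−0.315 from its neighbours' median). AHNAK, EVL, CAPG, CORO1B and FHL2 lie above or below neighbours centred near 0.

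Summed over all listed members, FPKM came to 11932, 11237 and 11682 in LenR and 14340, 14201 and 14156 in WT. This was 2.97% to 3.05% of all FPKM in LenR and 3.65% to 3.74% in WT, without overlap (exact two-sided permutation test on the log2 sums, p = 0.1, the smallest possible here). Without ACTB the sums were 10625, 9864 and 10527 in LenR and 11879, 11793 and 11368 in WT, also without overlap. The other members in shifted stretches stayed in these sums, ARPC2 and RAC1 lower in LenR and ARPC3 and CORO1C higher. TMSB4X, ranked 3 among members in both groups and not called, averaged 822 FPKM in LenR and 1406 FPKM in WT. Of the 56 members tested, 15 had a log2 fold change above 0. ACTB alone held 0.294% to 0.373% of all FPKM in LenR and 0.618% to 0.737% in WT.

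A wider set of 137 genes of actin control and SRF, in 5 lists, was read from the same fit. Of these, 118 were listed and 107 tested, of which 11 rose and 13 fell in LenR, 24 of 107 beside 15.1% of all genes. The median log2 fold change was −0.04, with 63 of 107 below 0. The count was 15 without WT replicate 2, beside 9.41% of all genes. CYFIP2, DOCK10 and SSH1 lie in shifted stretches, and without them 10 of 104 rose and 11 fell.

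Among 18 tested cofactors and targets of SRF, EGR1 rose and 4 genes fell (27.8% called, beside 15.1% of all genes). EGR1, an immediate-early transcription factor, measured 5.30, 6.86 and 4.32 FPKM in LenR and 1.18, 1.33 and 2.03 FPKM in WT (log2 fold change 1.37, SE 0.17, adjusted p = 0.00133). FOS and FOSB, immediate-early genes as well, fell, with 42.7 ± 4.55 FPKM in LenR against 64.0 ± 3.79 FPKM in WT for FOS (−0.58) and 9.97 ± 1.31 FPKM in LenR against 17.2 ± 1.35 FPKM in WT for FOSB (−0.73). MICAL2, an actin-oxidising enzyme that acts on SRF signalling, fell too (−0.47, adjusted p = 0.00362). The promoters of EGR1 and MYLK, both of which rose, hold CArG boxes and are shown for comparison with those above.
EGR1: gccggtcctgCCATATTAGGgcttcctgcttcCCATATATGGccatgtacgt
MYLK: ataaaccatcCCTTTTATGGgagttgaagc

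These lie at chr5:138465364-138465415 (plus strand) and chr3:123620623-123620652 (minus strand, overlapping an exon of a longer MYLK transcript), with boxes that begin 105 and 83 bases before the start of EGR1 and 94 before that of MYLK. In the same limited search, a box was in 4 of 106 promoters of the wider set (3.77%). The others were ROCK2, which did not pass, and MYO1E, which averaged under 1 FPKM and was not tested.

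Of 24 tested genes for nucleation, CTTN rose and 2 fell (12.5% called, beside 15.1% of all genes). CTTN, cortactin, which stabilises Arp2/3 branches, measured 4.35, 4.35 and 4.04 FPKM in LenR and 0.678, 0.625 and 0.959 FPKM in WT (log2 fold change 1.59, SE 0.09, adjusted p = 6.71e-05; 2.52 in a voom fit on recovered reads). CYFIP2, a WAVE complex subunit, fell (−0.70), and 19 of its 20 neighbours on chromosome 5 were below 0 as well (median −0.73). The formin gene DAAM1 fell (−0.27, adjusted p = 0.0498), a call that ended when any library but WT replicate 3 was left out.

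Myosin genes and their regulators moved in both directions, with 3 of 12 higher and 2 lower, beside 8.57% higher and 6.57% lower over all genes. MYO19, a myosin of mitochondria, measured 3.73, 1.66 and 2.92 FPKM in LenR and 0.330, 0.380 and 0.245 FPKM in WT (log2 fold change 1.48, adjusted p = 0.00162). MYLK, myosin light chain kinase, measured 2.70, 2.83 and 2.54 FPKM in LenR and 0.606, 0.361 and 0.418 FPKM in WT (1.34, adjusted p = 9.42e-05). PPP1R12A, the targeting subunit of the phosphatase that opposes this kinase, fell to 12.8 ± 0.886 FPKM in LenR, against 18.1 ± 1.05 FPKM in WT (−0.47). MYO1F, a myosin of blood cells, fell to 0.929 ± 0.12 FPKM in LenR, against 3.38 ± 0.589 FPKM in WT (−1.17), and MYL6B, a myosin light chain, rose (0.35, adjusted p = 0.0327). The call of MYL6B ended when any library but LenR replicate 2 was left out (adjusted p 0.0742 to 0.106). These low genes depend on the value added before the logarithm, and a voom fit on recovered reads gave 3.05 for MYO19, 2.57 for MYLK and −1.84 for MYO1F.

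Of 24 tested genes for turnover and cross-linking, 4 rose and 1 fell (20.8% called, beside 15.1% of all genes). MARCKS and MARCKSL1, which hold actin at the membrane, measured 36.1 ± 2.61 FPKM and 58.4 ± 5.49 FPKM in LenR and 24.8 ± 1.86 FPKM and 40.7 ± 0.83 FPKM in WT (0.53 and 0.50), SSH1, a cofilin phosphatase, rose (0.35), and SPTBN1, a spectrin, fell (−0.41). Leaving out any library but LenR replicate 3 ended the call of SSH1 (adjusted p 0.0506 to 0.147), and leaving out LenR replicate 1, WT replicate 1 or WT replicate 2 that of SPTBN1 (0.0501 to 0.0669).

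**Figure D5:**
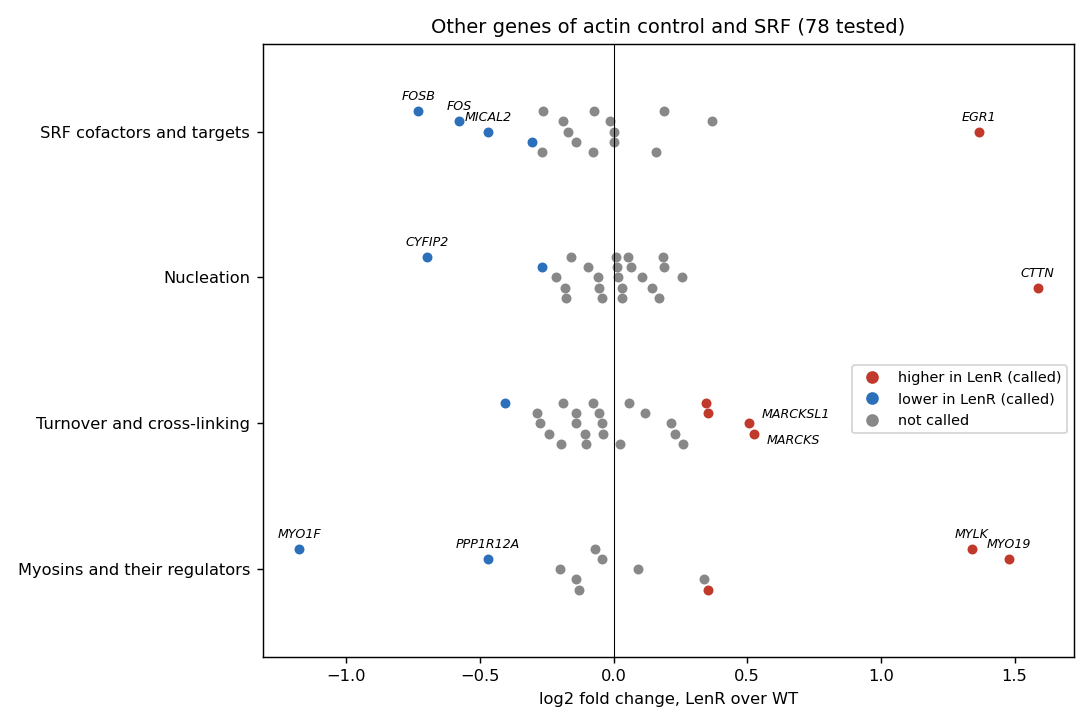
Log2 fold change of LenR over WT (horizontal axis) for tested genes of the wider set in the 4 lists described, 1 row per list, red called higher, blue called lower, grey not called; the vertical spread within a row only separates points. CTTN, MYO19, EGR1 and MYLK stand at the right, MYO1F at the left, and most genes lie near 0.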

How the data were processed

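The authors deposited 1 table of FPKM values, with 1 column per library and named in the sample descriptions, and no column was left unassigned. The submitters' processing notes name HISAT2 2.2.1, featureCounts 2.0.3, edgeR 3.40.2, FastQC 0.11.9 and the build hg38, with no roles. For the annotation, strand setting and gene filter, nothing is given in the sources used here. The FPKM values were tested as deposited, on log2(FPKM + 1), keeping 11276 genes whose mean reached 1 FPKM (1484 were left out), with limma 3.58.1 (R 4.3.3; group as the only term, empirical Bayes with a trend), Benjamini-Hochberg adjustment over all of them and a threshold of 0.05. Fold changes on this scale understate those of low genes. Whole reads could be recovered, within 0.03 of a read, for 100.0% of the 12760 genes, and were used for depth, gene lengths and a voom fit. Gene positions are from GENCODE 29, while promoters and the distances of CArG boxes use RefSeq gene starts. Every called member and ACTG1, SRF, TMSB4X and TMSB10 are given per library, and up to 3 called genes per direction are named from each wider list. The results of 1 of the wider lists on its own are not reported here. The members, lists and rules were chosen with earlier results of these data known. The test was tried on simulated data. The alternatives are given at the end. Same-numbered LenR and WT libraries did not deviate together from their group means (correlations of 0.024, −0.56 and −0.68). Plots used matplotlib 3.10.9 under Python 3.11.15.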

Additional observations from a re-analysis of the deposited data

How the results depend on the processing

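AHNAK, ACTB, ARPC2, RAC1, EVL, FHL2, CORO1B and CAPG stayed past the threshold in the same direction in every alternative that tested them. All 13 called members kept their direction in every alternative that tested them, which with a mean of at least 5 FPKM was 11. With 1 library left out, 9 to 14 members, 5 to 9 members outside shifted stretches, 15 to 23 genes of the wider set and 1006 to 1562 genes overall were called. With the replicate number as a block, 8, 5, 15 and 907 were called, although the numbers do not pair the libraries. With a term for LenR replicate 2 and WT replicate 3, picked from these data, these counts were 29, 24, 41 and 3163. With WT replicates 1 and 2 averaged, 5 members outside stretches, 15 genes of the wider set and 1052 overall were called, and the calls of CORO1C, FLNA, TPM4 and CNN2 ended. With a mean of at least 5 FPKM, 13 of the wider set and 1075 overall were called, with fewer genes tested. With each library's length trend removed, chosen after seeing the data, 14 members outside stretches, 19 members in all and 27 genes of the wider set were called, beside 16.6% of all genes. The log2 fold change of TMSB10 turned to 0.009 with quantile normalization, 0.024 in the 4 other libraries and 0.070 with the WT average, and ran from −0.202 to 0.205 with 1 library left out. That of SRF turned to −0.018 with the WT average and ran from −0.089 to 0.150 with 1 library left out, and neither gene passed in any of these. The cause was not tested. The calls of TPM4 and CNN2 also ended with quantile normalization. Low read numbers limit CAPG and, under the filter, ACTN1 and GSN.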

Other observations

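Genes of the wider set that passed the test but fall outside the rule for named genes, and were chosen after their values were seen, were VCL, ENAH and IQGAP1. VCL, vinculin, a focal adhesion protein and a known SRF target, measured 5.41, 5.67 and 5.18 FPKM in LenR and 6.73, 6.73 and 7.36 FPKM in WT (log2 fold change −0.31, limma, adjusted p = 0.0186). ENAH, the third Ena/VASP gene beside EVL and VASP, measured 1.54, 1.48 and 1.68 FPKM in LenR and 1.18, 1.02 and 0.873 FPKM in WT (0.34, adjusted p = 0.0259). IQGAP1, a scaffold that binds RAC1 and CDC42, measured 38.4, 44.2 and 40.4 FPKM in LenR and 49.3, 49.1 and 50.6 FPKM in WT (−0.27, adjusted p = 0.0427). None of these 3 genes had LenR and WT values that overlapped.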
